A study of Mus musculus with 12 samples.

Results

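H2BE is an olfactory variant of the core histone H2B, and the comparison described here asks how the MOE differed between H2be-KO and WT mice on the side of the nose that kept its air flow. Of the 12 arrays of the series, 6 belong to it by their titles: 3 samples of the open side of H2be-KO mice (KO open 1, 2 and 3) and 3 of the open side of WT mice (WT open 1, 2 and 3). The other 6 arrays hold the closed side of both genotypes. All mice had undergone unilateral naris occlusion (UNO), in which the right nostril was closed by electrocautery at 14 days of age for 3 weeks, so the open side is the untouched side of an MOE whose other side lacked air flow, and no mouse without UNO entered. Each sample was 1 side of the MOE taken off the medial bone and pooled from a female and a male, 2 mice in all, by the description of the series. The legends of the study give a larger pool for samples of this experiment. The titles give an age of 5 weeks, whereas the samples carry an age of 6 months in their tags. The legends of the study also give 5 weeks for this experiment, the age reached by closure at 14 days for 3 weeks. In the KO allele, present in every cell, the coding sequence of H2be is replaced by a fusion of the start of GAP43 with the red fluorescent protein mCherry. RNA of the samples was read on Mouse Gene 1.0 ST arrays of Affymetrix, and each value is a log2 expression level of a probe set, so that a difference of 1 is 2-fold. Probe sets with a mean log2 level above 5 over the 12 arrays were tested, 32615 of 35556. They represent 19372 genes with 1 gene symbol, 983 of the 1014 odorant receptor (OR) genes among them.

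Histone H2B forms the core of the nucleosome together with H2A, H3 and H4. Most H2B genes lie in clusters, differ little in their coding sequence and are transcribed when a cell replicates its DNA, whereas variant genes are transcribed outside of it and can replace the canonical protein in cells that no longer divide. The MOE holds such cells, the olfactory sensory neurons (OSNs), which arise from basal stem cells, mature, express a single OR gene each, detect odors through a cAMP pathway and are replaced throughout life. Besides OSNs the tissue contains sustentacular, microvillous, glandular and respiratory cells, glia, blood and bone. In such bulk tissue fewer cells of a type and less RNA per cell cannot be told apart. The tissue label was borne out by markers of OSNs and of sustentacular cells. Omp, which marks mature OSNs, reached a log2 level of 12.64 ± 0.05 in KO open and of 12.60 ± 0.06 in WT open (SD, n = 3 each), the odor transduction channel gene Cnga2 of 11.65 ± 0.06 and 11.62 ± 0.02, and Cyp2g1, a cytochrome P450 of sustentacular cells, of 12.51 ± 0.02 and 12.41 ± 0.03.

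On the open side the genotypes differed in H2B probe sets, and no other probe set passed the test. Of all probe sets tested, 7 were lower in KO open at an adjusted p under 0.05 (0.0215%, limma with Benjamini-Hochberg adjustment over all probe sets, two-sided) and 0 were higher. At an unadjusted p under 0.05, 540 probe sets were higher (1.66%) and 1635 were lower (5.01%). All 7 are annotated to several H2B genes at once, 3 of them to 14 and 4 to 15 symbols, and H2be is not among those symbols. None of the 19372 genes with a probe set of its own symbol passed. As a whole the arrays were alike: pairs of KO and WT arrays of the open side correlated with r from 0.978 to 0.984 over probe sets (9 pairs), and pairs within a genotype with r from 0.979 to 0.984 (6 pairs).

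The targeted gene comes first. H2be, named H2bc21 in current annotation, lay at log2 levels of 11.31, 11.33 and 11.32 in KO open and of 11.62, 11.55 and 11.58 in WT open. Each KO array was below each WT array, but the difference was small, -0.26 (standard error 0.07, 95% interval -0.42 to -0.11), which corresponds to 83.3% of the WT level. Its unadjusted p was 0.0034, and it did not pass the test adjusted over all probe sets (adjusted p = 0.641, limma). The exact permutation test over the 6 arrays gave p = 0.10, two-sided, the smallest value that 3 arrays against 3 can give. The KO allele replaces the coding sequence only, and whether this probe set reads coding or untranslated sequence was not tested, since the sources used here give no probe positions. The label KO is therefore not checked by this probe set. Gap43, a growth cone protein of immature OSNs whose first codons are part of the KO allele, had a difference of 0.01 (interval -0.16 to 0.19).

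The shared H2B probe sets that were called showed the clearest separation of the genotypes. The 7 of them hold 5 distinct sets of values, since 3 probe sets carry the same values in all 12 arrays. In those 3 the log2 level was 10.43, 10.29 and 10.34 in KO open and 11.37, 11.41 and 11.36 in WT open. The genotypes were thus apart by far more than their spread, with a difference of -1.03 (standard error 0.08, adjusted p = 0.000302, limma) or 49.1% of the WT level (95% interval 43.6% to 55.3%). The other 4 differed by -0.85, -0.84, -0.82 and -0.70 (adjusted p = 0.0040, 0.0040, 0.0041 and 0.0226, limma), and in each of them the 3 KO arrays lay below the 3 WT arrays. The last of them, with -0.70, lost its call without any 1 of 9 of the 12 arrays (adjusted p up to 0.190), while the other 6 kept theirs without each array in turn. Fitted on the 6 open-side arrays alone, only the 3 equal probe sets remained called among the H2B probe sets. All 7 were also called on the closed side, measured on the other 6 arrays, with differences from -1.15 to -0.87 (0.0245% of probe sets were called there, all lower). A further shared probe set, annotated to H2bc6 and H1f4, was not called and differed by 0.21 on the open side, with overlap.

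H2B genes with a probe set of their own fell on both sides of 0. Of 11 such genes in the list of H2B genes, 0 passed the test, 5 were lower and 3 higher at an unadjusted p under 0.05, against 4.63% lower and 1.56% higher among all genes. The lowest were H2bc3, with 7.73, 7.76 and 7.87 in KO open against 8.45, 8.86 and 8.63 in WT open (difference -0.86, adjusted p = 0.080, limma), and the pseudogene H2bu1-ps, with 8.17, 7.89 and 8.0 against 8.60, 8.71 and 8.67 (-0.64, adjusted p = 0.084, limma). H2bu2 differed by -0.63 and H2bc22 by -0.57, again with no overlap between the genotypes. In the other direction, H2bc4 had log2 levels of 10.10, 10.08 and 9.94 in KO open and of 9.70, 9.67 and 9.64 in WT open. Its difference of 0.37 (unadjusted p = 0.00059, adjusted p = 0.480, limma) set every KO array above every WT array. H2bc18, which lies close to H2be in the gene order of its chromosome, differed by 0.47 without overlap, and H2bc8 by 0.29 with overlap. H2bc9, H2bc14 and H2bc1 lay at -0.13, 0.10 and -0.01. These 11 genes include H2be, and genes of so similar a sequence can share signal, so the values are those of probe sets rather than of single genes. Whether any of these probe sets reads H2be transcript was not tested.

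**Figure D1:**
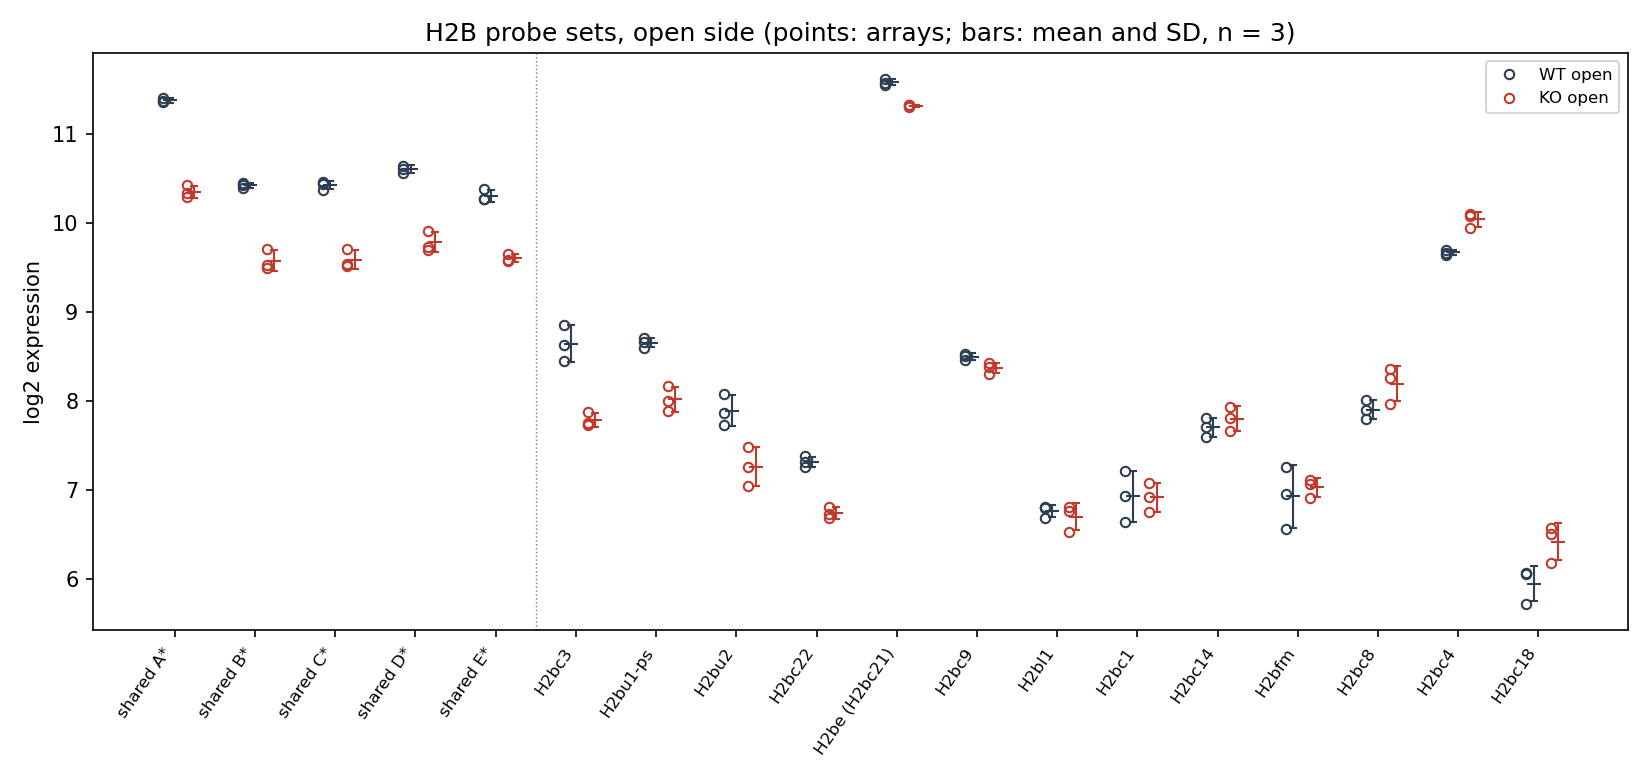
Log2 expression (vertical axis) of H2B probe sets in the 6 open-side arrays. Each circle stands for an array (WT dark, KO red), and bars next to the circles give mean and SD (n = 3). Shared A to E, marked by a star, are the 5 distinct sets of values of the 7 probe sets called at an adjusted p under 0.05, all annotated to several H2B genes, and the genes to the right of the dotted line have a probe set of their own. WT arrays lie above KO arrays in shared A to E, by 1.03 in A and 0.70 in E, while H2bc4 and H2bc18 lie higher in the KO. The probe set annotated to H2bc6 and H1f4, which was not called, is not shown.

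Among 15 genes of other histones, 0 passed the test. At an unadjusted p under 0.05, 0 were lower and 2 higher, against 4.63% and 1.56% of all genes. The 2 were the H4 gene H4c9, with 7.87 ± 0.16 in WT open and 8.32 ± 0.19 in KO open (difference 0.45, unadjusted p = 0.0046, limma), and the H2A gene H2aw, with a difference of 0.26. The variant genes H2ax and H2az1 differed by 0.06 and -0.10, and the median of the list was 0.06. Of 27 genes for chromatin enzymes and histone chaperones, 0 passed, the median difference was 0.003, and the 95% interval of each lay within a log2 difference of 0.5. Rnf20 and Rnf40, the ligase that ubiquitinates H2B, differed by 0.02 and 0.003 and the chaperone gene Nap1l1 by 0.01. Lbr, the lamin B receptor of the nuclear envelope, had the only unadjusted p under 0.05 of that list, with 0.20. Among 20 tested genes of the 25 that lie on each side of H2be in the RefSeq gene order, H2bc18 was the only 1 higher at an unadjusted p under 0.05, Mtmr11 (-0.31) and the telomerase RNA gene Terc (-0.37) were lower, and 0 passed.

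A p that misses the threshold does not show equal levels, so the 95% intervals were used to say how far apart the genotypes can be. The interval lay within a log2 difference of 0.5 for 14068 genes (72.6%) and within 1 for 19099 (98.6%). The median half-width of the interval was 0.28 for genes. Bright genes were bounded more closely: 98.6% of genes with a mean level between 9 and 10 and 98.2% of those above 10 lay within 0.5, against 22.5% of those between 5 and 6. A difference of 0.5 or more was measured for 61 genes in the higher (0.315%) and 155 in the lower direction (0.8%), 4 of them H2B genes and 13 with a mean level above 8.

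**Figure D2:**
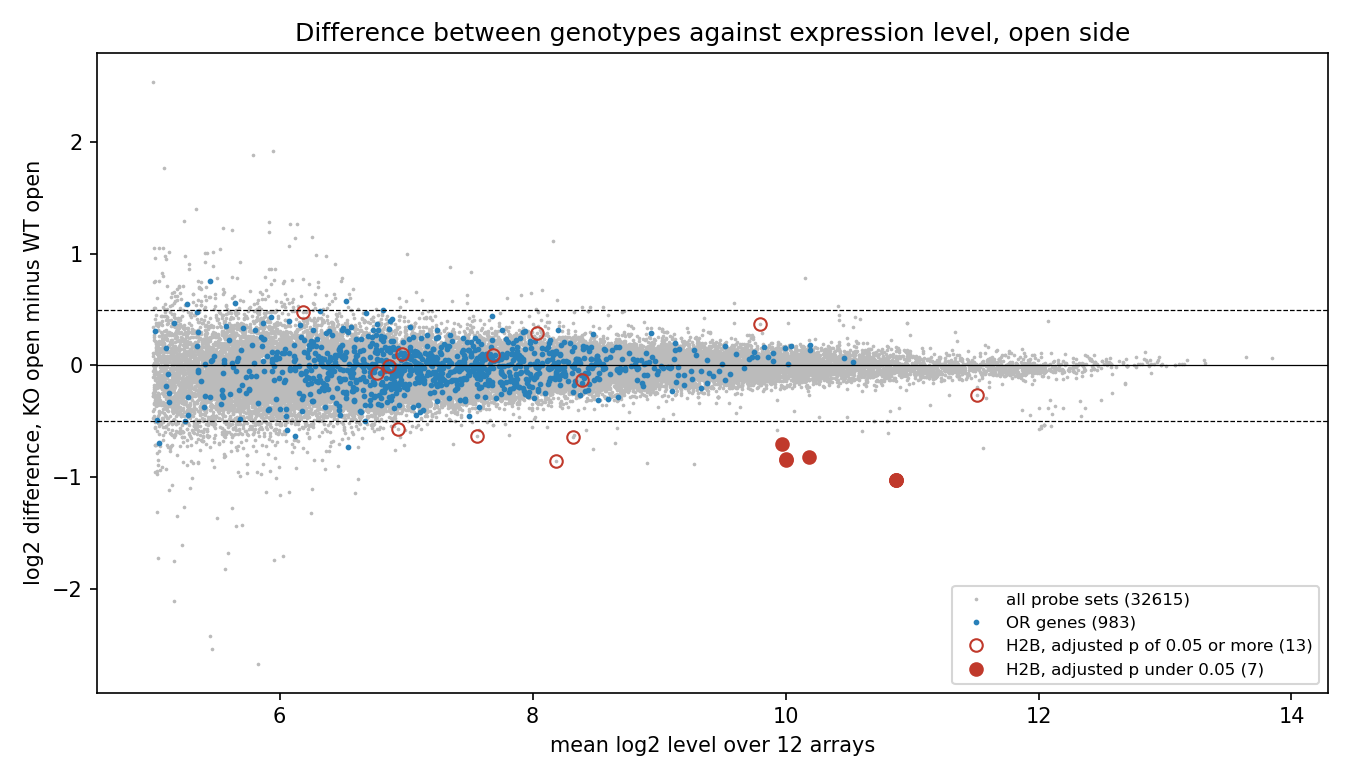
Log2 difference between KO open and WT open (vertical axis) against the mean log2 level over the 12 arrays (horizontal axis). Grey points are all 32615 probe sets, blue points the 983 OR genes, filled red circles the 7 called H2B probe sets and open red circles H2B probe sets with a single symbol, and the dashed lines mark 0.5. Differences narrow with the level, and the called H2B probe sets stand apart at levels near 10 and 11, with differences from -1.03 to -0.70.

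Among differences that did not pass, more were lower than higher in the KO, and the excess lay in dim genes. At an unadjusted p under 0.05, 896 genes were lower (4.63%) and 303 higher (1.56%). Between mean levels of 6 and 7, 8.33% of genes were lower and 1.79% higher, while above a level of 10 these shares were 0.429% and 0.286%. The scale of the arrays moved with this. Over the probe sets tested, the median level was 7.41 in KO open 1 and in KO open 2, 7.46 in KO open 3 and 7.46, 7.49 and 7.47 in WT open 1, 2 and 3. With the 12 arrays quantile normalized once more, 949 probe sets were higher and 949 lower, against 540 and 1635 as deposited, and the 7 calls remained 7. With each array centred on its median 1021 were higher and 932 lower. The direction of small shifts therefore depends on the scale, and the median difference over all genes, -0.03 as deposited, has to be read beside each value below. For 10 of the 31 gene lists the sign of the median difference turned under quantile normalization, median centring or cyclic loess: odor transduction, cell division, apoptosis, OR choice and trafficking, RNA processing, immediate early genes, immune cells, sustentacular cells, trace amine-associated receptors and reference genes. Leaving out 1 array turned the sign of the median in 17 lists and moved it by over 1.5 times in 12 more, the H2B and synaptic lists being the 2 exceptions, so list medians near 0 carry no direction.

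**Figure D3:**
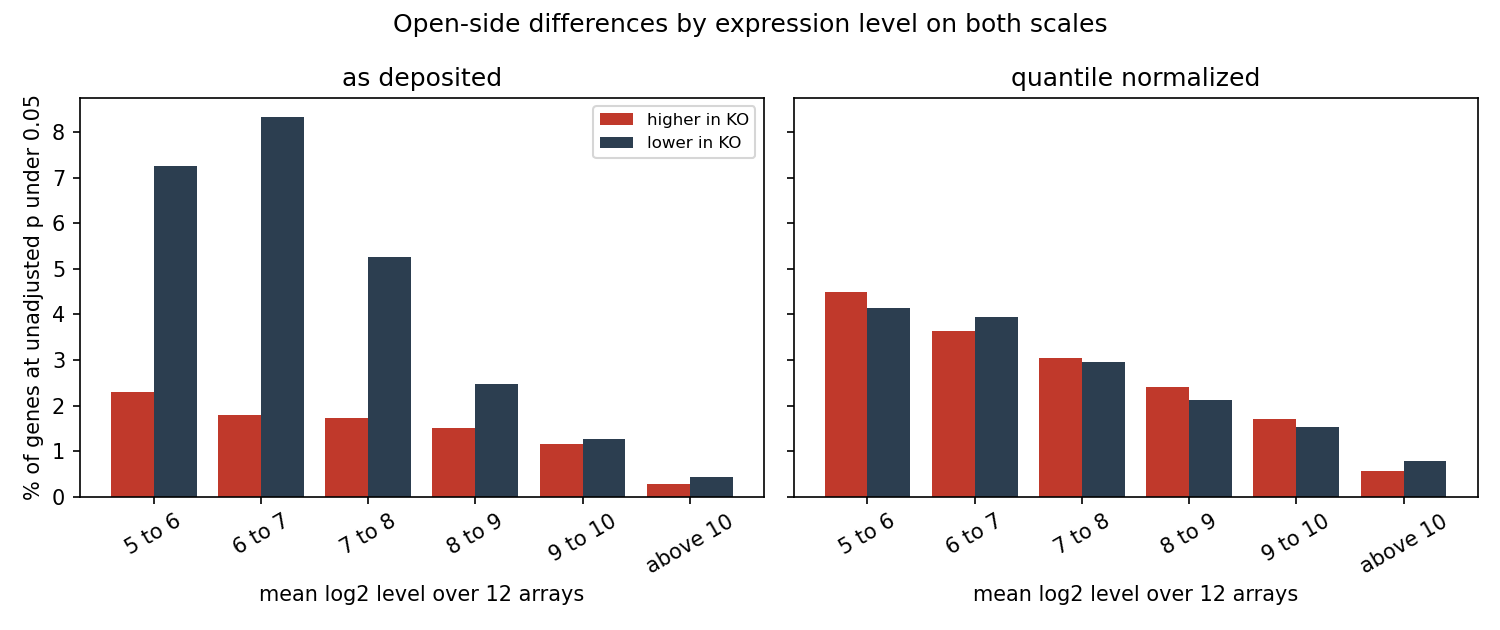
Share of genes at an unadjusted p under 0.05 (vertical axis, %) that were higher (red) or lower (dark) in KO open, by mean log2 level (horizontal axis), for the deposited values (left) and after quantile normalization (right). Lower genes prevail at dim levels in the deposited values, with 8.33% against 1.79% between 6 and 7, and both shares are close to each other after quantile normalization, with 3.94% and 3.64%.

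OR genes, the receptors that define the identity of an OSN, showed no call on the open side. Of 983 genes, 24 were higher (2.44%) and 44 lower (4.48%) at an unadjusted p under 0.05, against 1.56% and 4.63% of all genes, and 0 passed the test. The smallest adjusted p was 0.558 (limma). After quantile normalization 41 were higher (4.17%) and 25 lower (2.54%), against 2.82% and 2.76% of all genes. OR genes were dimmer than others, with median levels from 7.15 to 7.32 in the 6 arrays against 7.71 to 7.80. Among all genes, shares at an unadjusted p were larger at dim levels in both directions. Whether the level bears on the OR shares was not tested. The median difference of OR genes was -0.01 as deposited and 0.03 after quantile normalization, so its sign turns with the scale. Over all probe sets the median was -0.04 and -0.002, below that of OR genes on both scales. Whether OR genes are shifted against the rest was not tested. Differences ranged from -0.73 to 0.76. The mean levels of the 983 genes in KO open and WT open correlated with r = 0.983 over genes, which share arrays and are no replicates. The interval lay within 0.5 for 698 of them (71.0%) and within 1 for 968 (98.5%), and among the 222 with a mean level above 8 it lay within 0.5 for 206 (92.8%).

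The 10 brightest receptors had differences from 0.02 to 0.18, all of them higher in KO open. Olfr727 had log2 levels of 10.39, 10.62 and 10.43 in KO open and 10.39, 10.54 and 10.43 in WT open, a difference of 0.03 (95% interval -0.19 to 0.24). Olfr1264 differed by 0.07, Olfr15 by 0.18 and Olfr1507 by 0.08. In all 10 of the brightest OR genes the interval lay within 0.5, the bounds reaching from -0.21 to 0.40, and 0 had an unadjusted p under 0.05.

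Of 19 OR genes named in the text of the study, 0 had an unadjusted p under 0.05, and in 16 the interval lay within 0.5. Olfr1414, listed with them here but not named in that text, was at 7.42, 7.62 and 7.52 in KO open and 7.29, 7.12 and 7.25 in WT open, a difference of 0.30 (standard error 0.09, adjusted p = 0.641, limma), all KO arrays above all WT arrays. The 19 ranged down to -0.32 for Olfr1313, whose interval reached from -0.80 to 0.16. Receptors close to 0 included Olfr1325 (0.01), Olfr17 (-0.02), Olfr733 (0.04), Olfr1463 (0.05), Olfr1508 (0.06) and Olfr958 (0.06). Olfr867, Olfr293, Olfr1336, Olfr2, Olfr73 and Olfr653 had differences between 0.10 and 0.23, and Olfr1277, Olfr827, Olfr16 and Olfr167 between -0.24 and -0.08.

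Some receptors with smaller p-values did not overlap between the genotypes. Without overlap, 43 OR genes were higher (4.37%) and 74 lower (7.53%), against 4.24% and 8.38% of all genes. Olfr466 was at 6.65, 6.85 and 6.67 in KO open and at 6.36, 6.41 and 6.28 in WT open, with a difference of 0.37 and an unadjusted p of 0.0012. Olfr192 (0.49), Olfr874 (0.47), Olfr1160 (0.32) and Olfr1206 (0.29) lay in the same direction. Olfr1106 was at 6.47, 6.52 and 6.26 in KO open against 6.71, 6.90 and 6.85 in WT open, a difference of -0.40. Olfr1320 (-0.45), Olfr412 (-0.44), Olfr571 (-0.37), Olfr806 (-0.35) and Olfr139 (-0.32) lay on the lower side with it. On the closed side the differences of these 12 receptors, Olfr1414 included, ran from -0.30 to 0.37. Of the 12, 11 had the same sign as on the open side. Among OR genes at an unadjusted p under 0.05 on the open side, 18 of 24 higher and 35 of 44 lower ones kept their sign. Among all genes at an unadjusted p under 0.05, 212 of 303 higher (70.0%) and 535 of 896 lower ones (59.7%) did. Whatever their p, 57.1% of all genes above 0 and 55.6% of those below it did. The 12 were chosen by their open-side p, so the sizes on the sides are not compared. Nothing in the labels says whether open and closed samples share mice.

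The genes that make an OSN work had small differences. Of 17 markers of mature OSNs 0 had an unadjusted p under 0.05, the median difference was 0.004, and each interval lay within 0.5. Stoml3 differed by 0.004 and Gng13, a G protein subunit, by 0.12. Of 18 genes of odor transduction, 0 passed the test. Adcy3, the adenylyl cyclase of the pathway, had a difference of -0.02 (interval -0.18 to 0.14), Gnal, its G protein, of 0.01 and Cnga2 of 0.02, while Arrb2, an arrestin, had the only unadjusted p under 0.05 of this list (-0.22). Immature OSN markers had a median difference of 0.01 over 16 genes, with Gng8 at -0.12, Stmn2 at 0.01 and Ablim1 at -0.31, the last of which was alone in that list in having an unadjusted p under 0.05. Of 15 genes of OR choice and trafficking each interval lay within 0.5. Lhx2 and Ebf1, transcription factors of OSNs, differed by 0.004 and -0.08, and Atf5, induced when an OR is first made, by 0.15.

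Genes of cell turnover and of the basal layer had small differences too, with intervals within 0.5 for 10 of 12 basal genes, 12 of 17 of cell division and 14 of 19 of apoptosis. Neurog1 and Neurod1, factors of neuronal precursors, differed by -0.04 and 0.13, and Sox2, found in basal and sustentacular cells, by 0.27 (unadjusted p = 0.046), the single such member among 12 genes. Of 17 genes of cell division the median difference was -0.05. Mki67, Top2a and Pcna differed by -0.14, 0.05 and -0.07 and the replication helicase gene Mcm5 by -0.29. Of 19 genes of apoptosis the median was -0.02. The survival gene Bcl2 had a difference of -0.01, and Bad, which opposes survival, of -0.26 (unadjusted p = 0.041). In each of these lists 0 passed the test.

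Genes that respond to activity had wider intervals. Of 21 immediate early genes 0 passed. Npas4, an activity-dependent transcription factor, had the smallest p of them, with 5.85 ± 0.11 in KO open and 6.32 ± 0.10 in WT open (difference -0.47, unadjusted p = 0.0016, adjusted p = 0.567, limma), and Nr4a1 differed by -0.48 (unadjusted p = 0.0093). Ier2 lay the other way, at 0.23, and Fos, Egr1 and Arc differed by 0.02, -0.06 and 0.25, with an interval for Fos from -0.53 to 0.57. Only 10 of the 21 had an interval within 0.5. Of 22 genes of cAMP and CREB signalling 0 had an unadjusted p under 0.05, among them Creb1 (0.01) and Crem (-0.23). Axon sorting genes had a median of -0.06, with Kirrel2 at -0.06, Kirrel3 at 0.04 and Nrp1 at -0.06. Pcdh10, a protocadherin of OSN axons, had the largest difference there, with 9.10, 8.89 and 9.01 in KO open against 9.23, 9.34 and 9.67 in WT open (-0.42, unadjusted p = 0.035), and 24 of these 25 genes had an interval within 0.5. Of 27 genes of synaptic transmission 24 lay below 0, with a median of -0.07, while of all 19372 genes 11615 lay below 0. The synaptic median became -0.05 after quantile normalization and -0.02 after median centring. On the closed side it was 0.04. Syn1, Syt1 and Snap25 differed by -0.10, -0.06 and -0.06, and 0 had an unadjusted p under 0.05. The 47 genes of RNA processing had a median of -0.001, each interval lay within 0.5, and Srsf1 and Sf3b1 differed by 0.03 and -0.07 and Cpsf1 by -0.23 (unadjusted p = 0.048).

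**Figure D4:**
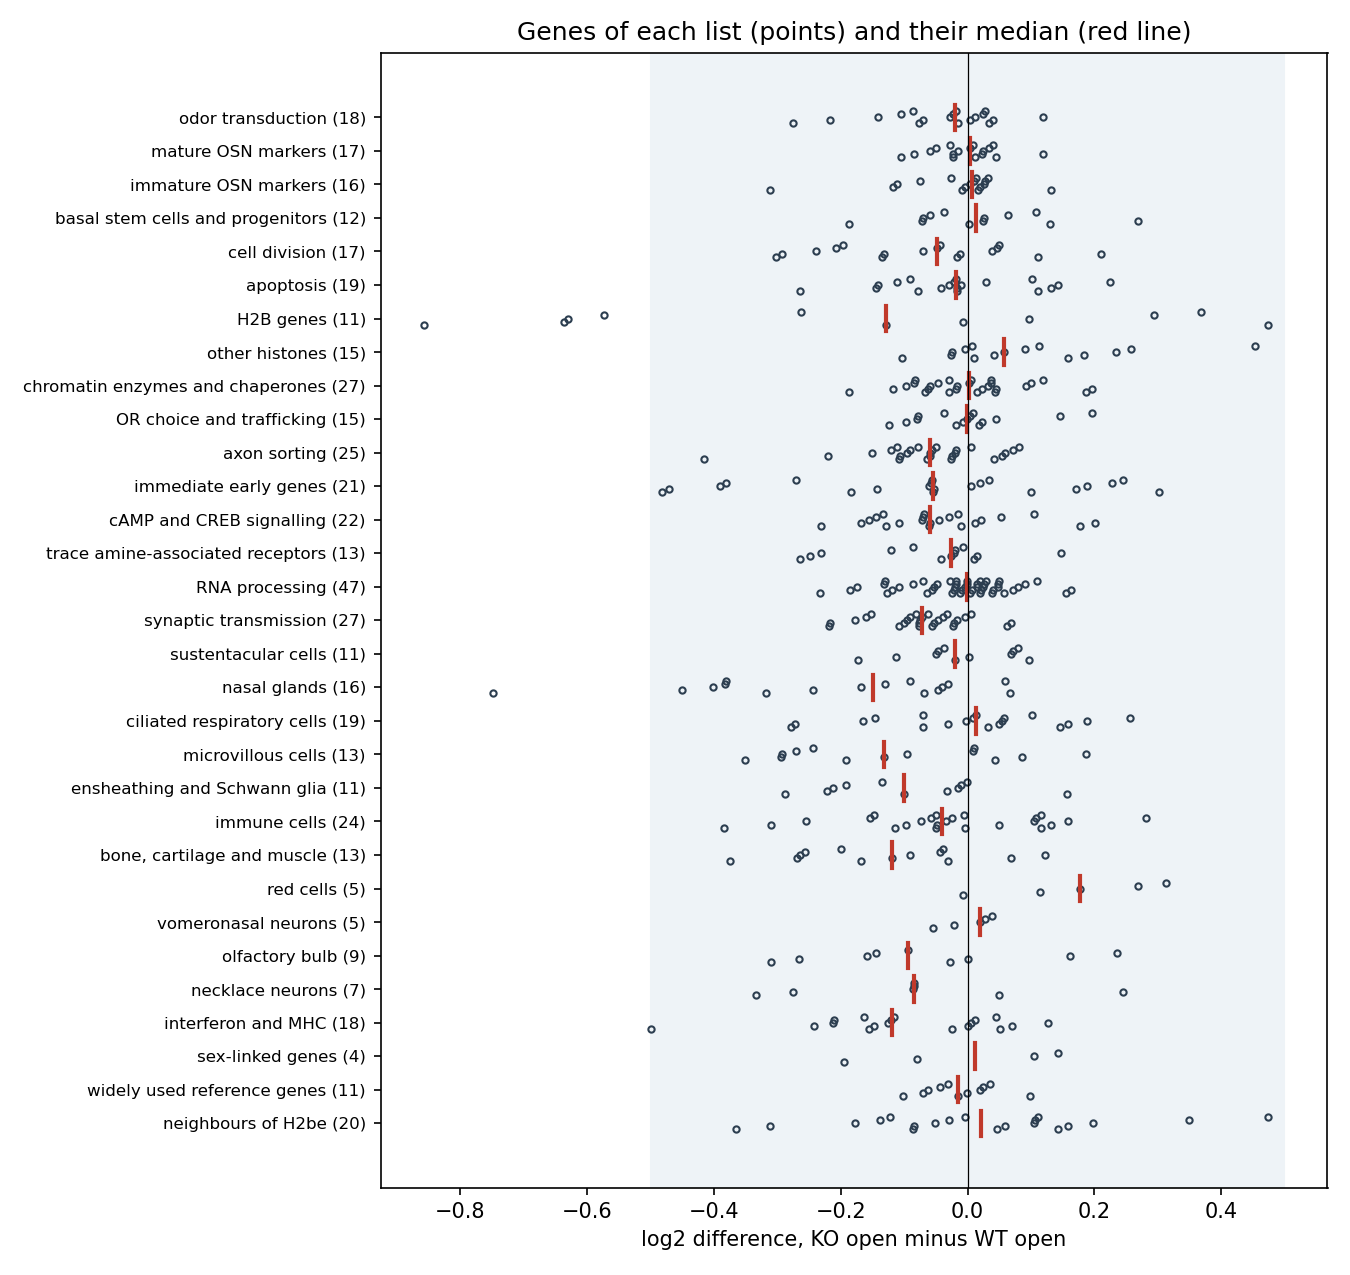
Log2 difference between KO open and WT open (horizontal axis) for the tested genes of each list (open circles, with their number in brackets), and the median of each list (red line); vertical offsets within a list only separate points. The shaded band marks differences within 0.5. The points of mature OSN markers, RNA processing and chromatin genes lie close to 0, and the 11 H2B genes spread from -0.86 to 0.47.

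Markers of other cell types were measured for the whole tissue and none passed the test. Sustentacular genes had a median of -0.02 with all 11 intervals within 0.5, and ciliated respiratory genes of 0.01, with Foxj1 at 0.15, Dnah5 at -0.07 and Tekt1 at -0.07. Nasal gland genes, which encode secreted carrier proteins and mucins, were lower in 14 of 16 cases with a median of -0.15. Single arrays set its size: the median was -0.05 without KO open 2 and -0.22 without KO open 1. Lcn3 was at 12.03, 10.75 and 11.79 in KO open and at 11.84, 11.80 and 12.14 in WT open, with KO open 2 alone low. Bpifb5, the gene with the largest difference of the list (-0.75), was at 9.18, 6.92 and 7.02 in KO open and at 9.07, 8.87 and 7.41 in WT open, so KO open 2, KO open 3 and WT open 3 were low there. Mean levels over the gland list ran from 11.11 to 11.71 in KO open and from 11.55 to 11.70 in WT open. Obp1a, Bpifa1 and Aqp5 differed by -0.17, 0.07 and 0.06. Microvillous genes had a median of -0.13, which was -0.07 after quantile normalization, -0.06 without KO open 3 and -0.19 without WT open 3. Of the 13 genes in this list, Trpm5, Avil and Sh2d6 were lower at an unadjusted p under 0.05 (-0.29, -0.35 and -0.27), as were 4.63% of all genes. Chat and Ascl3 differed by 0.01 and 0.04.

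The remaining lists held no call either. The median difference was -0.10 for glia (Sox10 -0.02), -0.04 for immune cells (Ptprc 0.12, Cd68 -0.05, Cd74 -0.05, Camp -0.38), -0.12 for bone, cartilage and muscle (Col1a1 -0.04, Acta1 0.12), 0.18 for 5 red cell genes (Alas2 0.18), 0.02 for vomeronasal genes (Vmn2r1 0.04, Calb2 -0.06) and -0.09 for genes of the olfactory bulb (Gad1 -0.03, Th -0.09, Slc32a1 -0.14). Without KO open 3 the median was -0.19 for immune cells, -0.21 for bone, cartilage and muscle and -0.03 for red cells, and without KO open 2 it was 0.08, -0.04 and 0.26. Eomes, Gfap and Slc6a3 of the bulb list had differences of 0.24, -0.31 and -0.27 at an unadjusted p under 0.05. Trace amine-associated receptors, a second family of olfactory receptors, had a median of -0.03 (Taar5 -0.26, Taar4 -0.03, Taar9 0.15), and necklace neuron genes of -0.09 (Gucy2d -0.28, Car2 0.05, Pde2a 0.25, Emx1 -0.33). Interferon and MHC genes had a median of -0.12, with Ifit1 at -0.12 and the antiviral gene Bst2 at -0.50 (unadjusted p = 0.0025). Reference genes were level, Actb at 0.02 and Hprt at -0.001, and all 11 had an interval within 0.5. Xist and the Y-linked gene Kdm5d differed by -0.19 and -0.08. Over all 31 lists, 483 genes were tested, 0 passed, 9 were higher (1.86%) and 23 lower (4.76%) at an unadjusted p under 0.05, against 1.56% and 4.63% of all genes.

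Outside the lists, the genes with the smallest p-values were mostly dim. Their names were taken by p among genes whose arrays did not overlap, 4.24% of all genes above and 8.38% below, and 0 of them passed. On the higher side, 3010003L21Rik was at 6.87, 7.04 and 6.46 in KO open and 5.98, 6.13 and 6.00 in WT open (difference 0.75, adjusted p = 0.252, limma), and it passed only without KO open 3 (adjusted p = 0.0125, limma). Il4ra, a receptor chain of interleukin 4, was at 8.75, 8.68 and 8.54 against 8.19, 7.89 and 8.32 (0.52). The homeobox genes Meox2 and Hoxd1 differed by 0.91 and 0.49, the zinc transporter gene Slc30a1 by 0.34, Crhr1, a receptor of corticotropin-releasing hormone, by 0.39, Thumpd1 by 0.35 and the microRNA gene Mir543 by 0.48. On the lower side, Guca2a, which encodes guanylin, was at 5.55, 5.61 and 5.53 in KO open and 6.09, 6.28 and 6.05 in WT open (difference -0.58, adjusted p = 0.275, limma). Mir451a, an erythroid microRNA gene, differed by -0.55, Nod1, a sensor of bacterial cell wall, by -0.66, Rftn1 by -0.63, the protease gene Ctrc by -0.60, the phospholipase gene Pla2g4f by -0.70, the cartilage matrix gene Comp by -0.50 and A230083G16Rik by -0.53.

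The closed-side arrays show which of these differences were found on the other side of the nose. H2be was at 11.46, 11.41 and 11.44 in KO closed and 11.68, 11.71 and 11.75 in WT closed. Its difference of -0.27 did not pass there either (unadjusted p = 0.0026, limma). H2bc3 differed by -0.84 on that side, H2bu1-ps by -1.07, H2bc4 by 0.28, Il4ra by 0.28 and Comp by -0.34. Guca2a, in contrast, lay at 0.21 on the closed side, Ctrc at 0.29, Nod1 at 0.01 and Rftn1 at -0.04. The test of the difference between sides called 0 probe sets (1309 at an unadjusted p under 0.05, 4.01%, limma), so none of the open-side differences was shown to be particular to it. Its unadjusted p was 0.00014 for Guca2a and 0.00022 for Ctrc (limma). Those genes were chosen by their open-side p, and the same open-side values enter this test. Of the 20 genes named that way 14 had an unadjusted p under 0.05 in it. Such p-values therefore cannot show a difference between the sides. When both sides were averaged, which sets 6 arrays against 6, 9 probe sets were called (0.0276%), all lower and all annotated to H2B genes, H2bc3 and H2bu1-ps among them, and 0 OR genes.

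**Figure D5:**
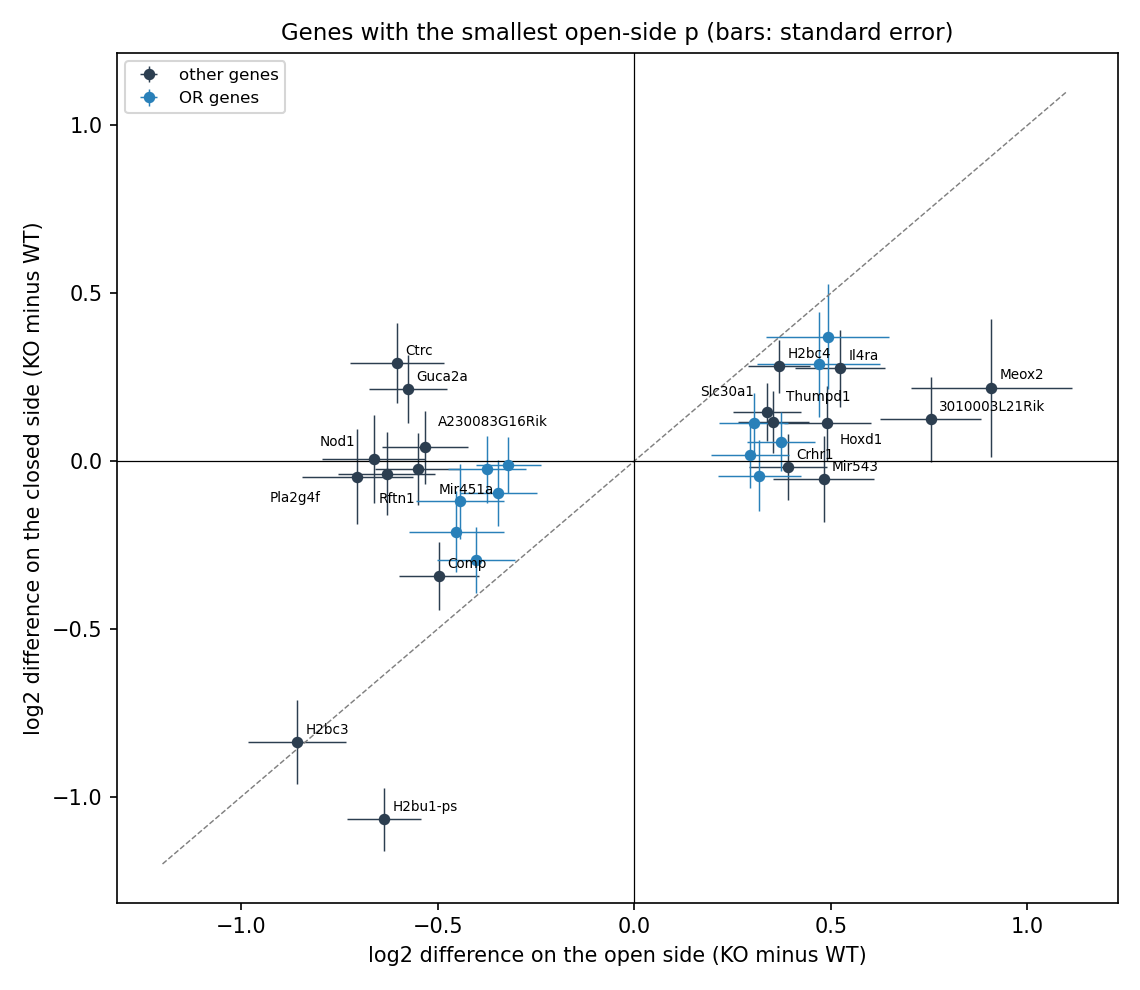
Log2 difference between KO and WT on the closed side (vertical axis) against the open side (horizontal axis) for the genes and OR genes with the smallest open-side p; bars are standard errors, OR genes are in blue, and the dashed line marks equal differences. H2bc3, H2bu1-ps, H2bc4, Il4ra and Comp differ in the same direction on both sides, whereas Guca2a and Ctrc lie below 0 on the open side and above 0 on the closed side. All were chosen by their open-side p, so the sizes on the sides are not compared.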

How the data were processed

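RNA of 12 samples was hybridised to arrays. The authors used the Expression Console of Affymetrix for IterPLIER summaries and sketch-quantile normalization. Deposited values are log2 levels per probe set (0 missing, 0 columns unused). Symbols came from the platform annotation, updated through RefSeq, and several-symbol probe sets entered counts of probe sets only. The brightest probe set stood for a gene.

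A mean per group was fitted to all 12 arrays with limma 3.58.1 in R 4.3.3 (mean log2 above 5, Benjamini-Hochberg over all probe sets). Figures used matplotlib 3.10.9. The fit was tested on simulated data. Members, lists and the naming rule (H2be, Gap43, the 10 genes and 6 ORs each way with the smallest p and no overlap, the first 3 genes of a list, list members at an unadjusted p under 0.05, 19 ORs the study names and Olfr1414) were chosen with earlier results of these data known. P-values measure the spread between pooled samples, and 3 arrays a group limit precision. In all, 24 alternative settings were run, 1 of them (cyclic loess) added after seeing the data.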

Additional observations from a re-analysis of the deposited data

How the results depend on the processing

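H2be kept its direction, between -0.28 and -0.21, and did not pass the threshold in any of 22 alternatives (-0.28 to -0.25 without each array in turn). The exact permutation test is among these, and it could not pass, since its smallest possible p is 0.10. The 7 called probe sets numbered 12 with trend and robust fitting (9 with an H2B symbol) and 4 with the 6 open-side arrays alone (3 with one), and from 6 to 8 without each array in turn (6 or 7 with one). Some fits without an array called probe sets that have no H2B symbol, those of Csn1s2b and 3010003L21Rik among them. The averaged sides gave 14 above a mean level of 7 and 24 with trend and robust fitting (9 to 11 without each array), and genes with 1 symbol called became 2, 2 and 1 above that level, with trend and robust fitting and with array weights (0 to 1 without each array), as did called list genes (0 to 0). Probe sets higher and lower at an unadjusted p were 949 and 949 after quantile normalization, 1021 and 932 after median centring and 963 and 928 after cyclic loess (418 to 679 and 1207 to 2152 without each array), and 852 were lower above a level of 7. For OR genes these counts were 41 and 25, 45 and 28, and 41 and 25, and 11 and 23 above a level of 7 (13 to 37 and 32 to 49 without each array; 13 without KO open 2 and 37 without WT open 2). List genes that were lower became 14, 11 and 13 under the 3 scalings and 35 with array weights, and higher ones 14 after median centring and 5 on the open side alone (5 to 9 and 11 to 26 without each array). Without each array in turn the OR median ran from -0.05 to 0.02 and the probe sets bounded within 0.5 from 18376 to 22401; under the other settings the former ran from -0.03 to 0.04 and the latter from 17855 to 22781. The difference between sides gave 671 above a level of 7 at an unadjusted p, 1030 to 1716 without each array, and 1 adjusted call without WT open 1. The labels do not say whether same-numbered KO and WT samples share more than a number. Their deviations correlated with r = 0.07, 0.16 and 0.16, each the highest of its sample, while pairs of unlike number ran from -0.14 to -0.02. Deviations from a group mean cancel out within the group, so the values of unlike numbers are not independent of those of like numbers. What same-numbered samples share was not tested. With the replicate number as a block 6 probe sets were called. Where open and closed samples of 1 number formed a random block, the averaged sides gave 9. The cause of these shifts was not tested. With 3 arrays a group, dim genes kept wide intervals.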

Other observations

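Of 12 genes with a log2 difference of 1 or more, 5 higher and 7 lower, 11 had an SD of 1 or more in a genotype and 11 a mean level of 7 or less. Gm5148 was listed at 0 in KO open 1 and in KO closed 1, at 6.43 and 6.08 in KO open 2 and 3, and from 6.57 to 6.98 in WT open. Zfp874a was at 7.73, 7.66 and 7.91 in KO open and 7.26, 6.31 and 7.09 in WT open, and the closed side repeated these values, with 7.76, 7.70 and 7.92 in the KO and 7.48, 6.35 and 7.01 in the WT. Olfr568 likewise was at 5.65, 5.90 and 6.55 in KO open and 7.11, 7.02 and 6.16 in WT open, beside 6.18, 5.93 and 6.86 and 7.42, 7.40 and 6.33 on the closed side. In Zfp874a and Olfr568 the WT array that stood apart thus carried the same number on both sides, 2 in the former and 3 in the latter. Gm5148, Zfp874a, Olfr568 and Chil4 were chosen after their values were seen. Chil4, a chitinase-like secreted protein, was at 11.42, 10.55 and 10.06 in KO open and 10.92, 9.14 and 8.63 in WT open, with no call (unadjusted p = 0.17). Among probe sets with no gene symbol, the smallest p belonged to 1 with a mean level near 6 (difference -1.75, adjusted p = 0.084, limma). That probe set was called in the fit on the 6 open-side arrays, with trend and robust fitting, without KO closed 1 and without KO closed 3.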
